A study of Homo sapiens with 54 samples.

Results

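The genes described here are 36 nuclear genes that encode subunits of the last parts of the respiratory chain: 9 of complex III, 11 of complex IV and 16 of ATP synthase (complex V). The rule that lists them goes by membership of a complex and not by a measured value. They were taken by symbol from the 38137 genes in the deposited table, and all 36 passed the low-count filter that left 15378 genes for testing. RNA from HEK293T cells, a human embryonic kidney line, had been sequenced in 18 groups of 3 independent biological replicates. Cells in 15 groups were transiently transfected with plasmids for RfxCas13d (WT), an RNA-guided nuclease that can also cut bystander RNAs once it is bound to a target, or for N2V7 or N2V8, engineered variants of it intended to lessen that collateral activity. For each effector there was a group with a crRNA that has no target (NTG), one with crRNA-13 (S13), which targets C9ORF72, and 1 for each of the crRNAs S3, S4 and S7, which the labels list only as additional. The treatment label of the 3 N2V8_S13 samples reads N2V87; they were taken as N2V8 from their titles, and every value of N2V8_S13 rests on that reading. The last 3 groups were left untransfected (UT) or received ASO2 or ASO4, which are antisense oligonucleotides. Harvest was at 48 h after transfection by the labels and later by the study's methods, and no group that received only a delivery reagent was analysed here, so an effect of delivery and an effect of the effector cannot be told apart in comparisons with UT.

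Complex III passes electrons from ubiquinol to cytochrome c, and complex IV passes them from cytochrome c to oxygen. Both pump protons out of the mitochondrial matrix, and ATP synthase lets the protons return through a ring of c subunits, whose rotation drives ATP formation in the catalytic head. Part of the catalytic core of complex III, the core of complex IV and part of ATP synthase's proton channel are encoded in mitochondrial DNA. Nuclear subunits made in the cytosol must therefore be imported and assembled with them. Many promoters of these nuclear genes are known to carry sites for the factors NRF1 and GABP, the latter of the ETS family.

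Library totals ran from 9546826 to 15099153 estimated counts. Levels are given as CPM, counts relative to the TMM-scaled library total, and changes as log2 fold changes ± SE, on which scale every rise, fall, difference or median of changes is given unless a fold is named. A gene was called where the higher level exceeded the lower by more than 25% and the adjusted p was under 0.05 in edgeR's quasi-likelihood F test, with Benjamini-Hochberg adjustment over all genes and the comparisons of a family. C9orf72, summed over its transcript variants, stood at 28.97 ± 1.31 CPM in UT and at 11.01 ± 0.77 CPM with ASO4 (log2 −1.40 ± 0.10, adjusted p = 2.17e-16), and the other groups had means of 24.43 to 29.92 CPM, with none of the other 22 comparisons calling it. All 7 listed markers of HEK293T cells were detected in every library, whereas INS, UMOD and AQP2, markers of other cells, were at 0 in all 54 libraries and the summed level of the 9 such markers stayed at or below 2.02 CPM. Library 2 of N2V7_S4 stood apart (SD of its log2 residuals 0.523, against at most 0.269 outside N2V7_S4), and N2V7_S4 held 95.6% of the squared weight of the factor of unwanted variation in the fit. A poly(A) library measures RNA relative to the rest of the RNA in the sample, so a change in how many cells held more of an RNA and a change in its level per cell cannot be told apart.

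The level of the 36 genes differed from group to group. As a median over the genes of log2 CPM relative to the mean of UT, the UT libraries themselves spread from −0.122 to 0.140. The 3 WT_NTG libraries lay between 0.0604 and 0.0825 and the 3 N2V7_NTG libraries between 0.115 and 0.191, whereas the N2V8_NTG libraries lay between 0.372 and 0.404, above every UT, WT_NTG and N2V7_NTG library. With S13 the ranges were 0.175 to 0.279 for WT, 0.369 to 0.420 for N2V7 and 0.199 to 0.347 for N2V8. The lowest group mean of a gene was that of UT for 16 of the 36 genes, and the highest was that of N2V7_S7 for 10 genes. In the N2V7_S4 group the 3 libraries spread from −0.225 to 0.406, the former being library 2. The share of all counts taken by the 36 genes ran from 0.568% to 0.822% over the libraries.

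**Figure D1:**
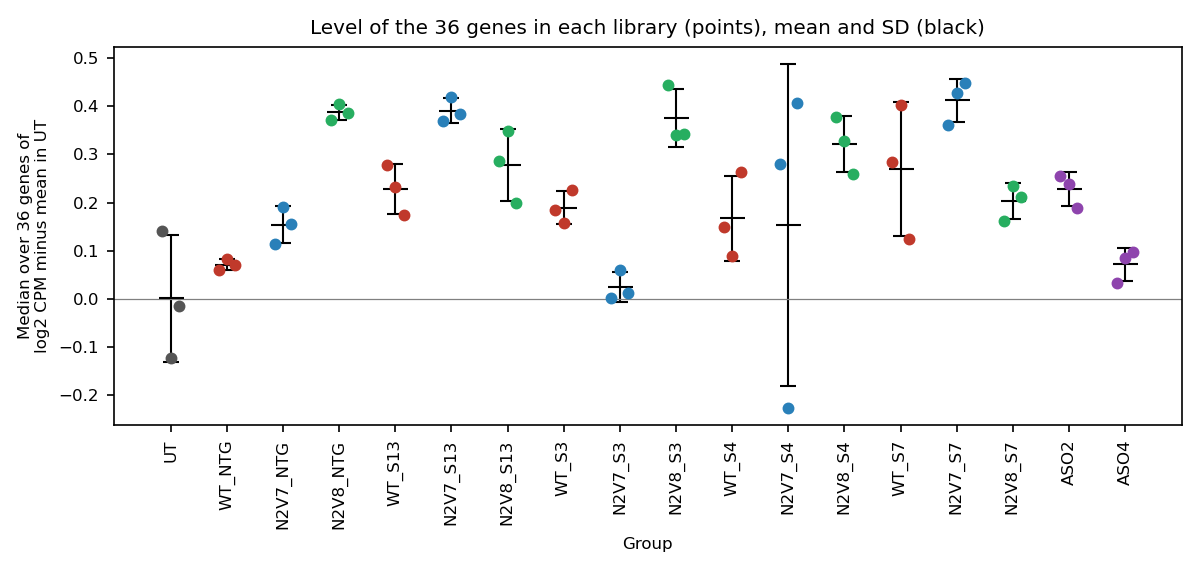
Level of the 36 genes in each library. The vertical axis is the median over the genes of log2 CPM minus the mean of log2 CPM in UT. The horizontal axis gives the 18 groups, points are libraries, and black marks show their mean and SD. The 3 N2V8_NTG libraries lie between 0.372 and 0.404, while library 2 of N2V7_S4 lies at −0.225.

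The first question was whether the subunit genes differed between cells that carried an effector with a crRNA that has no target and untransfected cells. With N2V8, 22 of the 36 genes rose, against 15.3% of all genes called higher in that comparison, and the median change was 0.38, against 0.00 over all genes. They were 5 of the 9 genes of complex III, 7 of the 11 of complex IV and 10 of the 16 of ATP synthase. In complex III the largest rise was that of UQCR10 (chr22:29767369-29770413 on GRCh38.p14), a small supernumerary subunit, whose libraries read 86.0, 78.0 and 78.4 CPM in UT and 115, 122 and 119 CPM in N2V8_NTG (log2 0.56 ± 0.06, adjusted p = 8.75e-12). UQCRQ, known as the ubiquinone-binding protein, rose by 0.53, CYC1, the cytochrome c1 that hands electrons on, by 0.48, UQCR11 by 0.46, and UQCRH, the hinge protein, by 0.35. The core proteins UQCRC1 and UQCRC2 and the Rieske iron-sulfur protein UQCRFS1 were not called, at 0.01, 0.07 and 0.27.

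In complex IV, COX7B (chrX:77899468-77907376), a supernumerary subunit of the oxidase, read 119, 97.6 and 103 CPM in UT and 180.2, 200.1 and 176 CPM in N2V8_NTG (log2 0.80 ± 0.10, adjusted p = 1.83e-08), a 1.74-fold rise with no overlap of the libraries. COX7A2, COX6C, COX5B, COX6B1, COX5A and COX7C, all subunits that surround the mitochondrially encoded core, rose by between 0.33 and 0.64. COX7A2L, which helps to join complex III to complex IV in supercomplexes, and COX8A were not called, at 0.10 and 0.19. In ATP synthase the rise was largest for ATP5MC1 (chr17:48892787-48895871, GRCh38.p14), 1 of the 3 genes for the c subunit of the rotor ring, from 30.2, 23.9 and 28.1 CPM in UT to 62.7, 66.9 and 59.4 CPM in N2V8_NTG (log2 1.21 ± 0.10, adjusted p = 5.02e-14), a fold of 2.31. Every N2V8_NTG library of ATP5MC1 was above every UT library. ATP5MF (chr7:99458195-99466167), the f subunit of the membrane part, rose 2.09-fold (log2 1.06 ± 0.06, adjusted p = 1.96e-20). Rises of the peripheral stalk genes ATP5PB, ATP5PF, ATP5PO and ATP5PD lay between 0.36 and 0.58. The catalytic beta subunit ATP5F1B rose by 0.41, and ATP5IF1, the inhibitor that holds back ATP hydrolysis, by 0.34. ATP5F1A, the alpha subunit of the head, and the central stalk genes ATP5F1C, ATP5F1D and ATP5F1E (gamma, delta and epsilon) were not called.

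Promoter sequence was read for the genes that moved, from RefSeq's promoters on GRCh38.p14, each with 250 bases before and 50 after the start. Of the 36 genes, 29 have an entry there; UQCRB, CYC1, COX6C, ATP5F1B, ATP5F1D, ATP5MC3 and ATP5MF do not. Motifs were chosen with the results known and searched on both strands, and matches of different motifs in the printed windows do not overlap. The printed window of ATP5ME begins with the end of an NRF1 match, which is left in lower case. ATP5ME has an ETS match as well, outside that window. The NRF1 motif, GCGCA and GCGC with any 1 base between, was found in 7 of the 29 genes (24.1%), against 6.98% of all genes with an entry, and the ETS core CCGGAAG in 13 (44.8%), against 12.2%. The cyclic AMP response element TGACGTCA was found in 2, ATP5MC1 and ATP5ME, against 2.25%. These shares of all genes include genes that were not tested here, and shares over the tested genes were not computed. Windows of 30 bases are printed here for ATP5MC1, which had the largest change of the 36, and for some other genes. Each of these had the largest called change of its complex in 1 or more comparisons. UQCRFS1, UQCRH, ATP5MG and COX8A are among the genes that meet this rule and have a match but are not printed. The motif is in capitals and in the sense of the gene. The printed windows lie on the strand given, at chr17:48892719-48892748 (+), chr4:674416-674445 (−), chr22:29767351-29767380 (+), chr10:7788145-7788174 (+) and chr5:132866577-132866606 (+) in the order printed.
ATP5MC1, cyclic AMP response element: tggggaatcgaTGACGTCAaccaatgggga
ATP5ME, cyclic AMP response element: tgcgcctcacgTGACGTCAccgccgcgcgg
UQCR10, NRF1: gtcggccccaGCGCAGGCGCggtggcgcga
ATP5F1C, NRF1: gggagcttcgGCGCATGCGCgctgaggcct
UQCRQ, ETS core: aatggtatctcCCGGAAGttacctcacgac

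Of the genes with an NRF1 match, 4 of 7 rose in N2V8_NTG against UT, as did 13 of the 22 without one. With an ETS match it was 8 of 13, and without one 9 of 16. Both genes with the cyclic AMP response element rose there, ATP5MC1 by 1.21 and ATP5ME by 0.41, as did 15 of the 27 without it. With ASO2, ATP5ME rose by 0.45 while ATP5MC1 was not called, at −0.11. A match is a description of these letters only, and binding of a factor was not measured.

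With N2V7 and NTG, 8 of the 36 genes rose against UT, where 10.9% of all genes were called higher. UQCR10 read 106, 109.8 and 108 CPM in N2V7_NTG (log2 0.42 ± 0.06, adjusted p = 2.15e-08), all above its UT libraries. COX6C, a complex IV subunit, went from 82.2, 73.0 and 72.2 CPM in UT to 105, 115 and 100.2 CPM (log2 0.49 ± 0.08, adjusted p = 1.56e-06). ATP5MC1 read 46.9, 54.7 and 50.01 CPM (log2 0.89 ± 0.10, adjusted p = 6.54e-10), and ATP5MF rose by 0.81. The others that rose were COX7B, COX7A2, COX5B and ATP5PF, and none of the 8 had libraries that overlapped those of UT. All N2V7_NTG libraries lay above all UT libraries for 15 of the 36 genes, as for 22% of all genes. They lay below them for 3, as for 22.3% of all genes. With WT and NTG, 2 of the 36 genes rose, where 2.71% of all genes were called higher: ATP5MF, with 81.2, 86.3 and 79.1 CPM against 66.3, 55.7 and 65.8 CPM (log2 0.40 ± 0.06, adjusted p = 1.04e-06), and COX6C, with 90.6, 100.2 and 98.2 CPM (log2 0.35 ± 0.08, adjusted p = 0.000417). For neither gene did the libraries of WT_NTG and UT overlap, but without library 2 of UT both calls with WT were lost. All WT_NTG libraries lay above all UT libraries for 8 of the 36 genes, as for 12.4% of all genes. The 3 comparisons share the UT libraries.

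**Figure D2:**
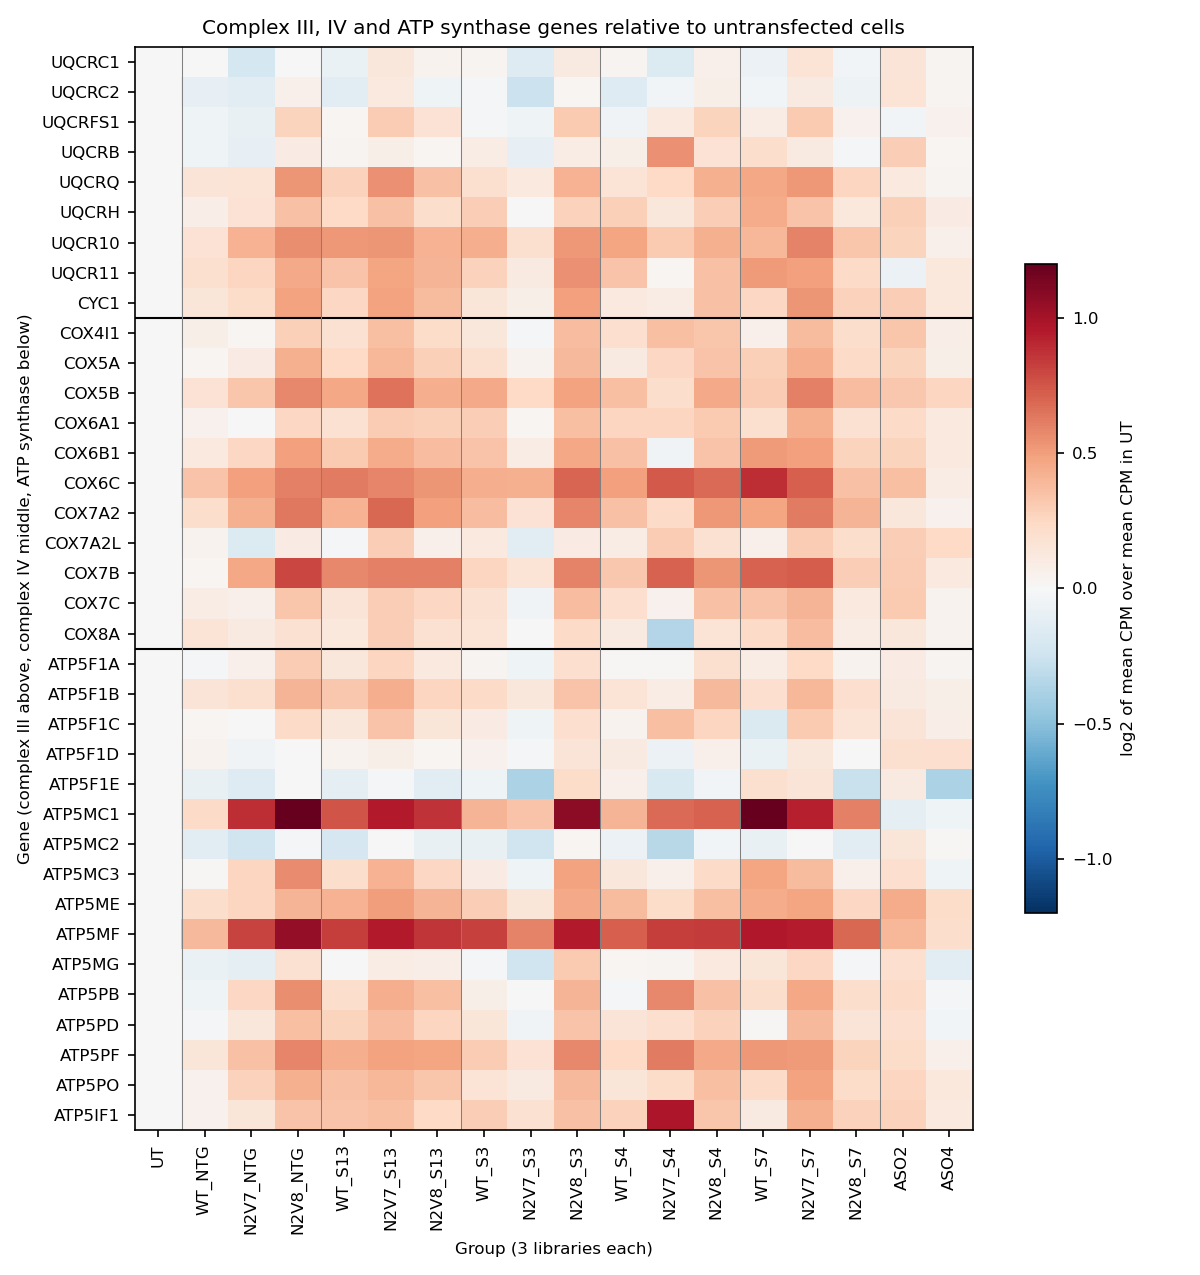
Mean CPM of each of the 36 genes (vertical axis) in the 18 groups (horizontal axis), as log2 of the ratio to the mean in UT on a color scale that ends at −1.2 and 1.2. ATP5MC1 and ATP5MF are the darkest rows, at 1.21 and 1.06 in the test of N2V8_NTG, while ATP5MC2 stays near 0 in that group; the N2V7_S4 column includes the library that stands apart.

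The effectors were then compared with each other under NTG. Against WT_NTG, 15 of the 36 genes were higher in N2V8_NTG, where 12% of all genes were called higher, and the median difference was 0.28. UQCR10 read 90.8, 92.0 and 91.3 CPM with WT and 115, 122 and 119 CPM with N2V8 (log2 0.38 ± 0.06, adjusted p = 3.41e-07). COX7B read 106, 107 and 112 CPM with WT against the N2V8 values given above (log2 0.78 ± 0.10, adjusted p = 5.52e-08), and ATP5MC1 read 34.9, 30.8 and 30.9 CPM with WT (log2 0.97 ± 0.10, adjusted p = 4.24e-11), a 1.96-fold difference. No library of these 3 genes overlapped between the groups, and 31 of the 36 genes had all N2V8_NTG libraries above all WT_NTG libraries, as did 25.7% of all genes. Against N2V7_NTG, N2V8_NTG was higher for 4 genes, where 1.87% of all genes were called higher: UQCRFS1 with 118, 139.9 and 126 against 90.3, 106 and 104 CPM (log2 0.36 ± 0.06, adjusted p = 1.1e-05), UQCRQ, COX7B with 180.2, 200.1 and 176 against 143, 149 and 147 CPM (log2 0.34 ± 0.09, adjusted p = 0.00603) and COX5A. All 36 differences had the same sign, but the 4 calls depended on single libraries, since leaving out library 1 of N2V7_NTG left none and leaving out library 2 of N2V7_NTG or library 1 of N2V8_NTG gave 7. N2V7_NTG was above WT_NTG for 3 genes, where 5.51% of all genes were called higher. These were ATP5MC1 (log2 0.65 ± 0.10, adjusted p = 9.47e-07), COX7B with 143, 149 and 147 against 106, 107 and 112 CPM (log2 0.44 ± 0.10, adjusted p = 0.000598) and ATP5MF (0.42), and all 3 kept their call each time 1 library was left out.

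The 3 genes of the c subunit did not move alike. ATP5MC1, ATP5MC2 and ATP5MC3 (chromosomes 17, 12 and 2) encode the same mature protein behind different mitochondrial import sequences. In N2V8_NTG against UT, ATP5MC1 rose by 1.21 and ATP5MC3 by 0.57, from 200.4, 156 and 159.6 CPM to 231, 274 and 261 CPM. ATP5MC2 read 263, 214 and 244 CPM in UT and 231, 241 and 242 CPM in N2V8_NTG (log2 −0.01 ± 0.06, adjusted p = 0.907, 95% interval −0.12 to 0.10), so that its libraries lay within the spread of UT. Over the 20 comparisons between groups, ATP5MC1 rose in 6 and fell in 4, ATP5MC3 rose in 3 and fell in 2, and ATP5MC2 was not called, with changes from −0.25 to 0.24. As a share of the counts of the 3 genes, which is not a share of molecules because their transcripts differ in length, ATP5MC1 took 6.07% to 6.51% in the UT libraries, 10.6% to 12% in N2V8_NTG and 12.3% to 13.1% in WT_S7. Its share was 6.99% to 8.35% in WT_NTG. In the ASO groups, which had neither an effector nor its plasmid, it was 5.01% to 6.48%.

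**Figure D3:**
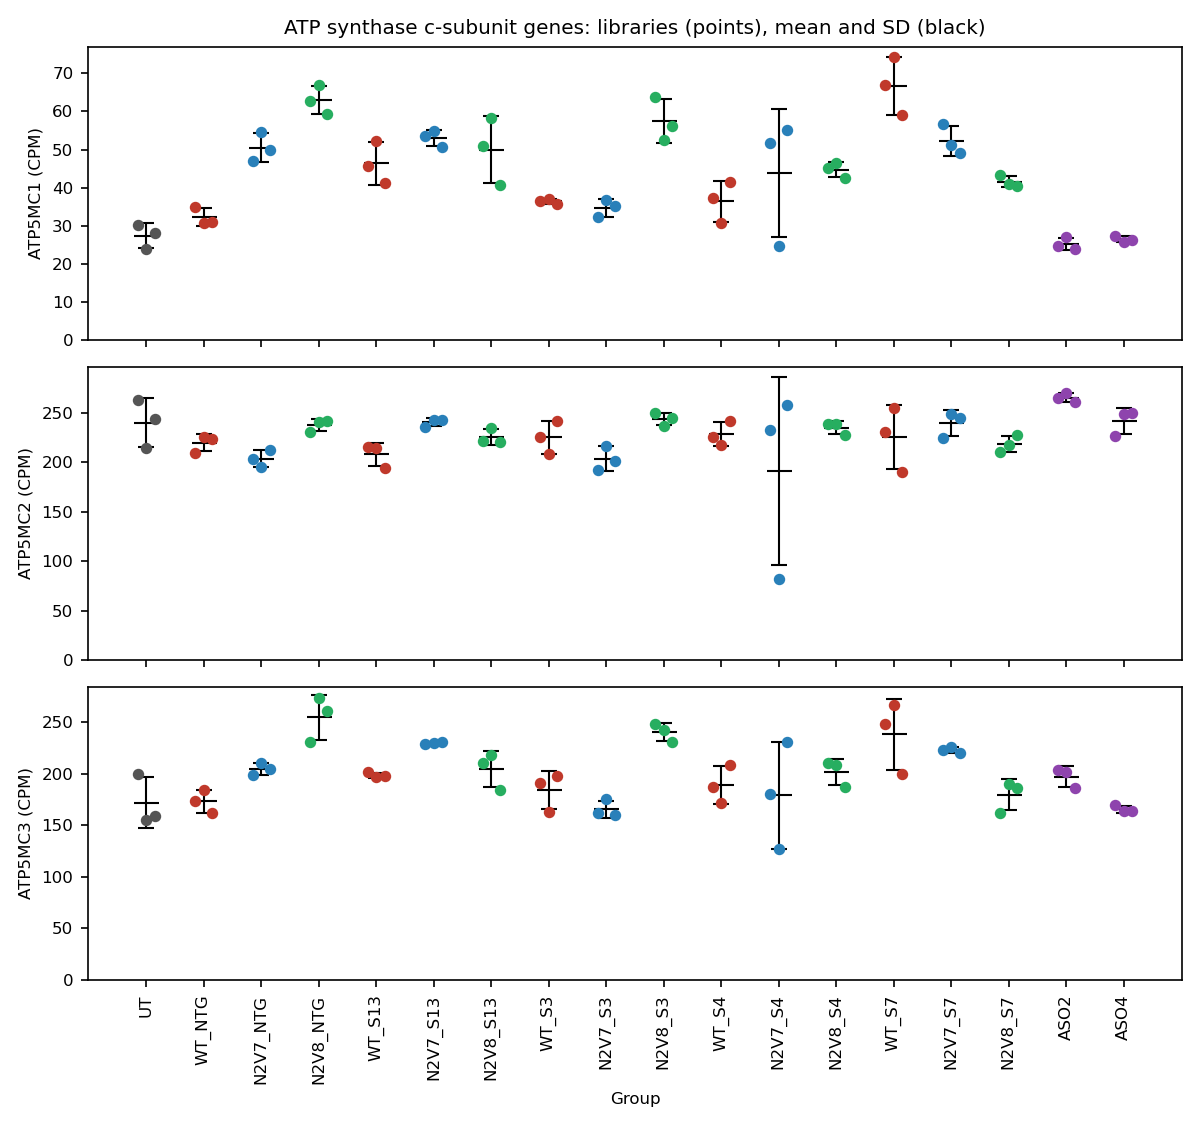
CPM (vertical axes, each from 0) of the 3 genes of the ATP synthase c subunit in the 18 groups (horizontal axis), with points for libraries and black marks for their mean and SD. ATP5MC1 averages 27.4 CPM in UT, 63.03 CPM in N2V8_NTG and 66.74 CPM in WT_S7, whereas ATP5MC2 averages 240.4 CPM in UT and 237.7 CPM in N2V8_NTG.

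Next, crRNA-13 was compared with NTG under each effector. With WT RfxCas13d, 4 of the 36 genes rose, where 6.53% of all genes were called higher, and the median change was 0.16. UQCR10 of complex III read 114, 122 and 112 CPM with S13 and 90.8, 92.0 and 91.3 CPM with NTG (log2 0.34 ± 0.06, adjusted p = 5.09e-06). COX7B of complex IV read 166, 156 and 156 CPM with S13 (log2 0.56 ± 0.10, adjusted p = 4.26e-05), a 1.47-fold rise over the NTG libraries given above. Among ATP synthase genes, ATP5MC1 read 45.7, 52.2 and 41.1 CPM (log2 0.52 ± 0.10, adjusted p = 8.5e-05), and ATP5MF rose by 0.44. For none of the 4 did the libraries of the groups overlap, and 23 of the 36 genes had all S13 libraries above all NTG libraries, as did 20% of all genes. UQCR10 lost its call when library 2 of WT_S13 was left out, and without library 3 of WT_S13 the count was 7.

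With N2V7, all 36 changes were above 0, with a median of 0.22, but only 6 genes passed the fold threshold as well as the test, where 3.66% of all genes were called higher. In complex III, UQCRFS1, the Rieske protein (chr19:29205320-29213151), read 128, 134 and 132 CPM with S13 and 90.3, 106 and 104 CPM with NTG (log2 0.40 ± 0.06, adjusted p = 3.57e-06). UQCRQ rose by 0.38 and UQCRC1, a core protein, by 0.35. In complex IV, COX7A2L (chr2:42335559-42368957) went from 147, 147 and 154 CPM to 201, 209 and 209.5 CPM (log2 0.46 ± 0.06, adjusted p = 3.91e-08), and COX4I1, a subunit through which nucleotides act on the oxidase, rose by 0.34. In ATP synthase the central stalk gene ATP5F1C went from 234, 239 and 236 CPM to 286, 307 and 303 CPM (log2 0.34 ± 0.05, adjusted p = 1.56e-06). The libraries of the 6 genes did not overlap between S13 and NTG. All S13 libraries lay above all NTG libraries for 30 of the 36 genes, as for 19.6% of all genes. ATP5MC1, COX7B and ATP5MF, called with WT, stood at 0.07, 0.15 and 0.14 with N2V7. Calls of COX4I1, ATP5F1C and UQCRC1 were lost when single libraries were left out, whereas those of COX7A2L, UQCRFS1 and UQCRQ were not.

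With N2V8, 1 of the 36 genes fell, where 0.715% of all genes were called lower, and 32 of the 36 changes were below 0 (median −0.10). The gene was ATP5MC1, with 50.9, 58.2 and 40.6 CPM with S13 and 62.7, 66.9 and 59.4 CPM with NTG (log2 −0.33 ± 0.09, adjusted p = 0.00924). Its groups did not overlap, but the highest S13 library came close to the lowest NTG library, and the call was lost without library 2 of N2V8_NTG or without library 3 of N2V8_S13, as well as in a fit with no factor of unwanted variation. The share of counts of rRNA genes was 4.17% to 4.42% in N2V7_S13 and 3.98% to 4.96% in N2V8_S13, above the 1.71% to 3.52% of the NTG libraries, but 1.79% to 2.30% in WT_S13, within the range of NTG. It was also high without crRNA-13 in some libraries, at 2.54% to 4.36% in N2V8_S3 and 3.93% in library 2 of WT_S4, and its part in these results was not tested.

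Whether the effect of crRNA-13 differed between effectors was tested directly, as the difference of the differences. Between N2V8 and WT it was lower with N2V8 for 15 of the 36 genes, where 9.72% of all genes were called lower, and between N2V8 and N2V7 for 18 of the 36 genes, where 5.37% were called lower. The median difference was −0.30 against WT and −0.33 against N2V7. Both differences use the N2V8_NTG libraries, which were the highest of the NTG groups, and both S13 and NTG levels stand behind them. For ATP5MC1 the difference from WT was −0.85 ± 0.14 (adjusted p = 6.22e-06), while its S13 libraries spanned 41.15 to 52.19 CPM with WT and 40.63 to 58.18 CPM with N2V8. Other large differences from WT were those of COX7B (−0.75), ATP5MF (−0.64), ATP5MC3 (−0.51) and UQCR10 (−0.48). Of the 16 ATP synthase genes, 9 were called, as were 5 of the 11 complex IV genes and 1 of the 9 complex III genes.

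Against N2V7 the called genes were 4 of complex III, 5 of complex IV and 9 of ATP synthase. The largest difference in each was that of UQCRQ (log2 −0.55 ± 0.10, adjusted p = 2.68e-05), COX7A2L (−0.50) and ATP5MC3 (−0.48). UQCRQ read 67.5, 72.7 and 74.6 CPM with NTG and 91.1, 94.0 and 95.1 CPM with S13 under N2V7, but 88.5, 96.2 and 90.4 CPM and 84.8, 89.5 and 70.1 CPM under N2V8. The S13 libraries therefore lay above the NTG libraries with N2V7, while with N2V8 the groups overlapped. Without library 3 of N2V8_S13 the counts were 11 against WT and 12 against N2V7. Between N2V7 and WT, 3 genes (8.33% of the 36) were called higher with N2V7, where 6.26% of all genes were. Lower were 2 (5.56% of the 36), where 8.63% of all genes were, so that both shares were near those of all genes. Those higher were COX7A2L (0.53), UQCRC1 (0.42) and UQCRFS1 (0.33), and those lower were ATP5MC1 (−0.45) and COX7B (−0.41). COX7A2L and UQCRC1 kept their call each time 1 library was left out, and without the factor of unwanted variation 2 of the 5 calls remained.

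**Figure D4:**
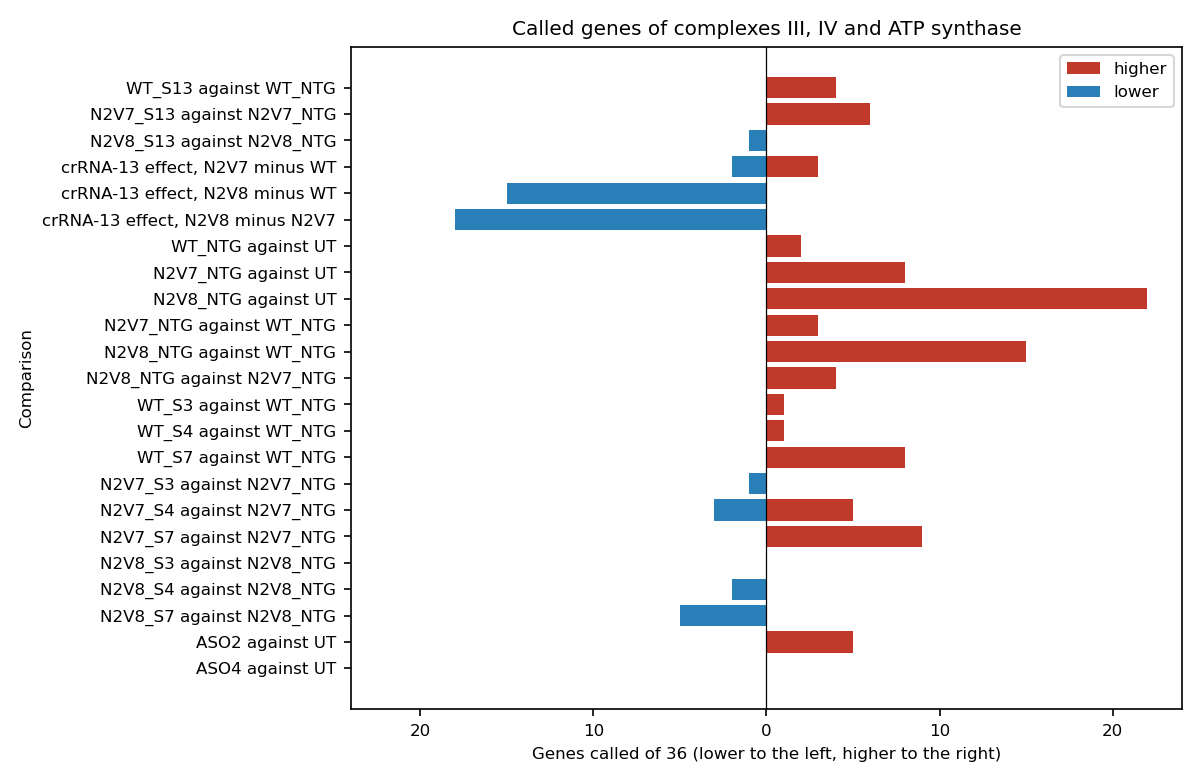
Number of the 36 genes called in each of the 23 comparisons (vertical axis), with genes called lower to the left and genes called higher to the right of 0 (horizontal axis). The longest bars are the 22 genes higher in N2V8_NTG than in UT and the 18 genes for which the crRNA-13 effect was lower with N2V8 than with N2V7.

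The additional crRNAs gave further comparisons with NTG of the same effector, and the 3 comparisons of an effector share its NTG libraries. With WT, 8 of the 36 genes rose with S7, where 9.36% of all genes were called higher. UQCRH of complex III read 239, 242 and 235 CPM with NTG and 282, 344 and 296 CPM with S7 (log2 0.36 ± 0.06, adjusted p = 1.23e-05). COX7B read 163, 204 and 156 CPM with S7 (log2 0.69 ± 0.10, adjusted p = 9.64e-07), and ATP5MC1 read 66.9, 74.3 and 59.0 CPM (log2 1.05 ± 0.10, adjusted p = 6.51e-12), in each case above all NTG libraries. ATP5MF, COX6C, ATP5MC3, COX6B1 and ATP5PF rose by between 0.37 and 0.56. Library 3 of WT_S7 had the lowest median over the 36 genes of that group, 0.125 above UT against 0.283 and 0.402, and without it 16 were called. ATP5MF was the only gene called with S3 and with S4 under WT, where 2.09% and 2.01% of all genes were called higher. It read 115, 105 and 112 CPM with S3 (log2 0.43 ± 0.06, adjusted p = 1.89e-07) and 108, 102 and 99.9 CPM with S4 (log2 0.33 ± 0.06, adjusted p = 4.01e-05), and the call with S4 was lost without library 1 of WT_NTG.

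With N2V7, 9 of the 36 genes rose with S7, where 5.38% of all genes were called higher, and 35 of the 36 had all S7 libraries above all NTG libraries, as did 20.4% of all genes. UQCRFS1 read 131, 130.2 and 135 CPM with S7 (log2 0.41 ± 0.06, adjusted p = 1.66e-06), COX7A2L 200.1, 203 and 220.1 CPM (log2 0.47 ± 0.06, adjusted p = 1.01e-08), and ATP5MG, the g subunit of the membrane part, 224, 238 and 228 CPM against 178, 178 and 186 CPM with NTG (log2 0.35 ± 0.08, adjusted p = 0.00132). COX6A1, UQCRC1, COX4I1, UQCRQ, COX7C and COX5A rose as well. The share of counts of rRNA genes was 3% to 4.86% in N2V7_S7 against 1.76% to 3.07% in N2V7_NTG, and its part was not tested. With S3, ATP5MC1 fell, where 1.02% of all genes were called lower, to 32.2, 36.8 and 35.2 CPM from 46.9, 54.7 and 50.01 CPM (log2 −0.54 ± 0.10, adjusted p = 4.45e-05). All S3 libraries lay below all NTG libraries for 21 of the 36 genes, as for 12.9% of all genes. With S4, 5 genes were called higher and 3 lower, where 9.66% and 14.5% of all genes were, and the group holds the library that stands apart. COX8A, called lower (log2 −0.81 ± 0.06, adjusted p = 6.8e-15), read 97.2, 21.6 and 135 CPM with S4 and 114, 115 and 120.3 CPM with NTG, so that library 2 lay far below the NTG libraries and library 3 above them. COX6B1 and UQCR11, the others called lower, read 104, 36.04 and 131 CPM and 78.8, 34.5 and 96.2 CPM with S4, and their groups overlapped too. Without library 2 of N2V7_S4, 5 genes were called, all higher and 4 of them among the 8, while 15 were called without library 1 and 16 without library 3; COX6B1 and UQCR11 stood at 0.091 each without library 2. ATP5IF1 with 126, 232 and 96.3 CPM and UQCRB, a complex III subunit, with 229, 359 and 207 CPM were also most extreme in library 2, although all of their S4 libraries lay above the NTG libraries.

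With N2V8, where the NTG level was already high, 5 of the 36 genes fell with S7, against 3.47% of all genes called lower, and 2 fell with S4, against 3.21%. With S7, COX7B read 126, 144 and 123 CPM (log2 −0.50 ± 0.10, adjusted p = 0.000166) and ATP5MC1 43.3, 41.0 and 40.4 CPM (log2 −0.60 ± 0.10, adjusted p = 4.25e-06), all below the NTG libraries of N2V8. ATP5MC3, ATP5MF and ATP5PB fell by 0.50, 0.37 and 0.35 on the log2 scale. For 28 of the 36 genes all S7 libraries lay below all NTG libraries, as for 17.1% of all genes. With S4, ATP5MC1 read 45.2, 46.4 and 42.5 CPM (log2 −0.49 ± 0.09, adjusted p = 9.11e-05), and ATP5MC3 fell by 0.33. With S3, edgeR called 0 of the 36 genes, where 2.15% of all genes were called higher and 0.917% lower; at an unadjusted p under 0.05, 2 were higher and 3 lower, and limma-trend and DESeq2 also called 0. Complex III genes were not among those called with N2V8 and S3, S4, S7 or S13. With S7, however, all 9 of their changes were below 0. Their median was −0.22, against −0.20 for complex IV and −0.21 for ATP synthase. Of the 9, 6 had an adjusted p under 0.05 in edgeR's test but stayed below the fold threshold.

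The oligonucleotides were compared with UT. With ASO2, 5 of the 36 genes rose, where 7.07% of all genes were called higher, with a median change of 0.23. COX6C read 103, 96.1 and 92.4 CPM (log2 0.36 ± 0.08, adjusted p = 0.000534), and ATP5ME, the e subunit of the membrane part, read 47.6, 48.2 and 47.3 CPM against 35.5, 32.8 and 36.6 CPM in UT (log2 0.45 ± 0.07, adjusted p = 2.47e-06), without overlap. ATP5MF, COX4I1 and COX5B rose by 0.40, 0.33 and 0.32. The count rested on the UT libraries, since it was 15 without library 1 of UT and 2 without library 2 of UT, and it was 3 without library 1 of ASO2. With ASO4, edgeR called 0 of the 36 genes, where 0.917% of all genes were called higher and 1.22% lower; at an unadjusted p under 0.05, 9 were higher and 1 lower, and limma-trend called 0 and DESeq2 1, ATP5F1E, as lower. The largest changes with an adjusted p under 0.05 were those of COX5B (0.26) and COX7A2L (0.24), below the fold threshold.

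Over the 20 comparisons between groups, 31 of the 36 genes were called at least once. The share of all genes so called was not computed. ATP5MF was called higher in 10 of the comparisons and lower in 1, and COX7B higher in 7 and lower in 1. The 5 genes never called were UQCRC2, a core protein of complex III, and ATP5F1A, ATP5F1D, ATP5F1E and ATP5MC2 of ATP synthase. ATP5F1E is uncertain, because a read-through gene that spans it, SLMO2-ATP5E, shares its sequence and took 75.26 to 149.5 CPM over the libraries while ATP5F1E took 61.16 to 126.2 CPM. SLMO2-ATP5E was called in N2V8_NTG against UT (log2 0.42 ± 0.11, adjusted p = 0.00393). With the counts of both summed, ATP5F1E was still not called in any comparison. Levels were also described across the 18 group means, all from 1 sequencing lane. The log2 level of COX5A followed the mean of the other 35 genes most closely (Pearson's r = 0.962). That of ATP5F1D followed it least (r = 0.149). UQCRQ and ATP5PO had r = 0.934 and 0.927, and ATP5MC2 had r = 0.257.

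Transcript length moved with these changes. The canonical transcripts of the 36 genes have a median length of 955.5 nt, against 3278 nt over all tested genes with a length. In N2V8_NTG against UT, the 263 other genes of at most 1000 nt with a mean level at least as high as the lowest of the 36 had a median change of 0.26 and 43.7% of them were called higher. The 19 of the 36 genes of at most 1000 nt had a median of 0.41, with 14 called, and the 17 longer ones had a median of 0.31, with 8 called. In the differences of the crRNA-13 effect, 29.7% of the other short genes were called lower for N2V8 minus WT and 33.8% for N2V8 minus N2V7. Of the 19 short genes of the 36, 10 and 7 were called lower in these differences, and of the 17 longer ones 5 and 11. In WT_S13 against WT_NTG, the other short genes had a median of 0.12, with 15.6% called higher, and the 19 short genes of the 36 had 0.21, with 3 called. In N2V7_S13 against N2V7_NTG, the other short genes had 0.19, with 7.6% called higher. The 19 short genes of the 36 were close to that, at 0.20 with 1 called, and the 17 longer ones had 0.24, with 5 called. In N2V8_NTG against WT_NTG, the other short genes had 0.25, with 38.4% called higher, and the 19 had 0.29, with 9 called. When the trend on length within each library was removed by an offset, an alternative chosen after the data were seen, 11 of the 36 genes were called in N2V8_NTG against UT, 10 of them among the 22, and the median change was 0.23. ATP5MC1 stood at 0.95 there, ATP5MF at 0.75 and COX7B at 0.74. Under the same offset, COX7B and ATP5MC1 kept their call in WT_S13, COX7A2L and UQCRFS1 in N2V7_S13, and 7 genes were called in each of the differences of N2V8 from WT and from N2V7. The canonical transcript need not be the one these cells make, as for UQCRB (8459 nt) and ATP5F1E (3610 nt), and the part of length in the changes was not tested beyond this offset.

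**Figure D5:**
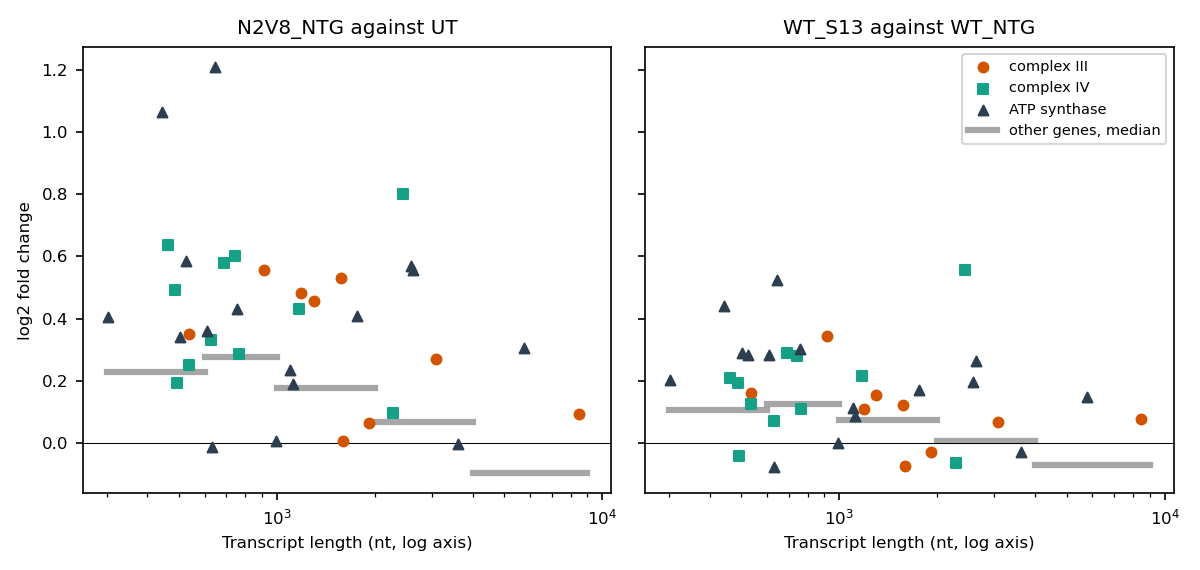
Log2 fold change (vertical axis) against the length of the canonical transcript in nt (horizontal log axis) for the 36 genes, in N2V8_NTG against UT (left) and WT_S13 against WT_NTG (right); grey bars are medians of other genes, at least as abundant as the lowest of the 36, in 5 length classes. In N2V8_NTG the grey bar is 0.28 in the class above 600 and up to 1000 nt and −0.10 over 4000 nt, and ATP5MC1 and ATP5MF lie above 1.

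The genes around the 36 were followed in lists. Of 37 complex I subunits, 21 rose in N2V8_NTG against UT (median 0.44), where 15.3% of all genes were called higher. For the crRNA-13 effect, 16 of them were called lower for N2V8 minus WT (median −0.29), where 9.72% of all genes were. For N2V8 minus N2V7 it was 13 (median −0.27), where 5.37% of all genes were called lower. In the S13 comparisons 9 rose with WT, where 6.53% of all genes did, and 6 with N2V7, where 3.66% did, led by NDUFB3 (0.56) and NDUFB5 (0.36), and their medians were 0.20 and 0.22, against −0.09 with N2V8. CYCS encodes the cytochrome c that carries electrons between complexes III and IV. It rose by 0.50 with WT and fell by 0.33 with N2V8. No other of the 5 genes of complex II and cytochrome c was called in either. In N2V8_NTG against UT, 4 of these 5 rose (median 0.47), where 15.3% of all genes were called higher. For the crRNA-13 effect, 4 were called lower for N2V8 minus WT and 3 for N2V8 minus N2V7, where 9.72% and 5.37% of all genes were. Of 28 assembly factors of complex IV, 16 rose and 1 fell in N2V8_NTG against UT, where 15.3% of all genes were called higher and 14.7% lower. With WT and S13, where 6.53% of all genes were called higher and 4.24% lower, 6 rose, led by COA6 (0.52), a copper-site factor, and 1 fell, COX19 (−0.40). With N2V7 and S13, CMC1 alone of the 28 rose (0.52), and with N2V8, where 1.72% of all genes were called higher and 0.715% lower, COX19 rose (0.33) and COX16 fell (−0.33).

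Of the 6 tested assembly factors of complex III, UQCC2, needed for cytochrome b synthesis, rose with N2V7 and S13 (0.46), and none was called with WT or N2V8. Of the 6 assembly factors of ATP synthase, 4 rose in N2V8_NTG against UT, FMC1 (0.82), ATPAF2 (0.72), TMEM70 (0.38) and ATPAF1 (0.35), against the 15.3% of all genes, and none was called in the S13 comparisons. Of 12 further subunits and isoforms, 4 were tested, of which ATP5MK, a small ATP synthase subunit, rose with WT and S13 (0.39). Of 11 regulators of nuclear respiratory genes, 2 rose and 1 fell in N2V8_NTG against UT, near the 15.3% and 14.7% of all genes called higher and lower there. These, like the ATP synthase factors above, are named after their values were seen: ESRRA, a nuclear receptor that binds promoters of such genes (0.65), TFB2M, a mitochondrial transcription factor (0.50), and PPRC1, a coactivator (−0.68). With N2V7 and S13, PPARGC1B and PPRC1 fell (−0.58 and −0.44), where 7.78% of all genes were called lower, while none of the 11 was called with WT or N2V8. The 82 genes of cytosolic ribosomal proteins, which are also short and abundant, had a median of −0.04 in N2V8_NTG against UT, with 3 called higher and 3 lower, while the 36 genes had 0.38. Elsewhere their medians were closer to those of the 36 genes. In N2V7_S13 against N2V7_NTG the ribosomal median was 0.18 and that of the 36 genes 0.22, in ASO2 against UT 0.22 and 0.23, and in N2V8_NTG against N2V7_NTG 0.18 and 0.23. In N2V7_S7 against N2V7_NTG it was 0.27 against 0.25, with 14 of the 82 called higher, where 5.38% of all genes were. The difference of the crRNA-13 effect between N2V8 and N2V7 had a ribosomal median of −0.23 against −0.33, with 13 of the 82 called lower, where 5.37% of all genes were. With WT and S13, the ribosomal median was −0.01 and that of the 36 genes 0.16.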

How the data were processed

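Stranded poly(A) libraries of HEK293T RNA were sequenced on 1 lane of a NovaSeq. The deposited table holds estimated counts: the authors quantified spliced transcripts with Salmon 1.5.2, with the GRCh38 genome as decoy, and summed them to genes by tximport as length-scaled TPM. A further deposited column, other than a measurement, marks the 15464 genes the authors kept. In the study's own analysis, limma-trend with 1 RUV factor was run in R 4.2.2.

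Here the counts were rounded to whole numbers. Genes were filtered by filterByExpr, libraries were scaled by TMM, and all 54 libraries of the 18 groups (3 replicates each) entered 1 edgeR 4.0.16 quasi-likelihood fit (R 4.3.3) with a term for each group and 1 factor of unwanted variation from the residuals, leaving 35 residual degrees of freedom. That factor held 23.4% of the residual variance. P-values were Benjamini-Hochberg adjusted over all 15378 genes and the comparisons of a family, 6 families and 23 comparisons in all, and a call needed a higher level over 25% above the lower and an adjusted p under 0.05. The labels call the replicates independent biological replicates. No 2 replicates held identical values, and their correlations ran from 0.950 to 0.990. Total counts ran from 9546826 to 15099153, and the SE of a change also reflects the spread between replicates.

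The rule for the 36 genes uses no measured value, but the choice of these genes, the gene lists, the motifs and the tests was made with earlier results of these data known. All 36 genes could be named. Those called with the largest change, up to 5 in each direction, were named in each comparison, and the largest of each complex was given in every library. Up to 3 called genes of each other list were named per crRNA-13 comparison. Transcript lengths are those of the canonical GENCODE transcript and were found for 94% of tested genes. limma 3.58.1 and DESeq2 1.42.0, other filters, scalings and sets of libraries were alternatives. The scripts were tested on simulated data.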

Additional observations from a re-analysis of the deposited data

Results flagged for a closer look

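The difference between effectors in the effect of crRNA-13, tested directly with edgeR's quasi-likelihood test and Benjamini-Hochberg adjustment, marked the following results for a second look. Between N2V8 and WT, 15 of the 36 genes differed, where 9.72% of all genes were called lower. The largest were ATP5MC1 (−0.85), COX7B (−0.75), ATP5MF (−0.64), ATP5MC3 (−0.51) and UQCR10 (−0.48), all lower with N2V8. Between N2V8 and N2V7, 18 genes differed, where 5.37% of all genes were called lower, led by UQCRQ (−0.55), COX7A2L (−0.50), UQCRFS1 (−0.49), ATP5MC3 (−0.48) and COX5B (−0.46). Of the 37 complex I subunits, 16 were called lower with N2V8 in the difference from WT and 13 in that from N2V7. Between N2V7 and WT, 5 genes differed, 8.33% of the 36 higher and 5.56% lower, where 6.26% and 8.63% of all genes were called higher and lower, so that the count is near the share of all genes. COX7A2L (0.53), UQCRC1 (0.42) and UQCRFS1 (0.33) were higher with N2V7, and ATP5MC1 (−0.45) and COX7B (−0.41) were lower. Each difference holds the NTG level of both effectors, and the N2V8_NTG mean was 0.39 ± 0.02 above UT (SD, n = 3) against 0.07 ± 0.01 for WT_NTG and 0.15 ± 0.04 for N2V7_NTG, on the log2 scale of the median over the 36 genes.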

How the results depend on the processing

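The counts of called genes stayed within 1.5 times the reported ones in all 23 comparisons under limma-trend, DESeq2's size factors and a replicate block, and the median changes moved under the length offset alone. Without the factor of unwanted variation, 0 genes were called in N2V8_S13 against N2V8_NTG and 2 in the difference N2V7 minus WT. Without the filter on low counts, it was 0 in N2V8_S13, 0 in WT_S4 and 1 in ASO4, and with only the compared libraries 0 in N2V8_S13 and 1 in N2V7_S4. DESeq2 called 1 gene with ASO4. The offset for transcript length, chosen after seeing the data, moved 15 of the 23 counts and 8 of the 23 medians. It gave 2 in WT_S13, 3 in N2V7_S13 and 0 in N2V8_S13, 7 in N2V8 minus WT and 7 in N2V8 minus N2V7. Against UT it gave 1 for WT_NTG, 11 for N2V8_NTG and 1 for ASO2, and 7 for N2V8_NTG against WT_NTG. For the additional crRNAs it gave 0 in WT_S3, 0 in WT_S4, 5 in WT_S7, 4 in N2V7_S7, 1 in N2V8_S4 and 3 in N2V8_S7. Of 143 calls of single genes, 76 were lost under it and none reversed. The cause of these shifts was not tested.

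Replicate numbers did not pair the samples, since in 0 of the 20 comparisons did all same-numbered libraries correlate above 0.1 in their deviations (mean r = −0.00173). With the replicate block, 22 genes were called in N2V8_NTG against UT, 4 in WT_S13, 6 in N2V7_S13 and 1 in N2V8_S13, and all 143 calls were kept.

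With 1 library left out at a time, the counts ran from 3 to 7 in WT_S13, 5 to 9 in N2V7_S13 and 0 to 2 in N2V8_S13 (2 without library 1 of N2V8_NTG or library 1 or 2 of N2V8_S13). They ran from 4 to 7, 11 to 18 and 12 to 23 in the differences N2V7 minus WT, N2V8 minus WT and N2V8 minus N2V7. Against UT they ran from 0 to 2 for WT_NTG (1 without library 3 of UT or library 2 of WT_NTG), 6 to 10 for N2V7_NTG, 18 to 26 for N2V8_NTG, 2 to 15 for ASO2 and 0 to 1 for ASO4 (1 without library 2 or 3 of UT). Between effectors with NTG they ran from 3 to 4 for N2V7 against WT, 14 to 17 for N2V8 against WT and 0 to 7 for N2V8 against N2V7 (1 without library 2 of N2V8_NTG). For the additional crRNAs they ran from 0 to 3 in WT_S4 (3 without library 2 of WT_S4), 6 to 16 in WT_S7, 1 to 3 in N2V7_S3 (3 without library 1 of N2V7_NTG or library 2 of N2V7_S3), 5 to 16 in N2V7_S4 (15 without library 1 and 16 without library 3 of N2V7_S4), 6 to 12 in N2V7_S7, 1 to 3 in N2V8_S4 (1 without library 2 or 3 of N2V8_NTG or library 3 of N2V8_S4) and 4 to 6 in N2V8_S7. In N2V7_S4 against N2V7_NTG, UQCR11 ran from −0.64 to 0.091 and COX6B1 from −0.82 to 0.091, both above 0 without library 2 of N2V7_S4. Leaving that library out of every fit, also chosen after seeing the data, gave 20 genes in N2V8 minus N2V7 and 5 in N2V8_NTG against N2V7_NTG and changed no other count outside N2V7_S4.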
